A study of Mus musculus with 30 samples.

Results

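The genes described here handle iron in the small intestine of the mouse: Slc11a2, Slc40a1, Cybrd1, Heph, Tfrc, Fth1, Ftl1 and Ireb2. They were taken as a list of 8 gene symbols, and each gene was read from the array probe sets that carry its symbol alone, of which the one with the highest mean over the 30 arrays stood for the gene and the others served as checks. Such probe sets were found for 7 of the 8, out of 18194 genes with a probe set of their own, and all 7 were among the 14548 genes whose mean level passed the filter and were tested. The light ferritin chain Ftl1 had 3 probe sets, each shared with other symbols, so no value is given for it.

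The arrays measured RNA of intestinal villi and of intestinal crypts from 2 month old mice. Mutants were harvested 5 days after ablation of Rb, or of Rb and Myc, and controls carry the same 5 days in their labels. Ablation was done with Ah-cre, a Cre recombinase whose expression can be induced and which the labels call intestine-specific. The 3 genotypes were control, Rb KO (Rb deleted) and Rb/Myc DKO (Rb and Myc both deleted, DKO below), each with 5 villus and 5 crypt arrays. Whether the controls carried or induced the Cre is not given in the sources used here, nor is the share of cells in which each deletion took place. Rb is the brake on entry into the cell cycle encoded by Rb1, and Myc is a growth-promoting transcription factor; Rb KO against control reads the loss of Rb, and DKO against Rb KO the loss of Myc in cells without Rb. All levels are log2 values on the deposited scale and were compared between genotypes within a tissue, since villus and crypt arrays did not share a scale.

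Dietary non-heme iron is reduced at the brush border of the enterocyte, in which Cybrd1 (duodenal cytochrome b) takes part, and carried into the cell by the divalent metal transporter Slc11a2. Iron leaves at the basal side through ferroportin, Slc40a1, with hephaestin, Heph, oxidising it for transport in plasma, while iron that is not passed on is stored in ferritin, built from heavy (Fth1) and light (Ftl1) chains. Dividing cells take up transferrin-bound iron from the blood side through the transferrin receptor, Tfrc. Iron regulatory proteins, one of them encoded by Ireb2, bind iron-responsive elements in the transcripts of several of these genes, holding back ferritin translation and keeping Tfrc mRNA stable when iron is low. Tfrc is also a known transcriptional target of Myc, which is why it is set beside Myc here.

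The Tfrc promoter is shown because Tfrc is set beside Myc here, and where Myc acts on the gene was not tested. It is the stretch from 250 bases before to 10 bases after the annotated start in RefSeq, build GRCm38.p6, chr16:32608646-32608905, forward strand. Every match to ACGTG on either strand is in capitals.
Tfrc: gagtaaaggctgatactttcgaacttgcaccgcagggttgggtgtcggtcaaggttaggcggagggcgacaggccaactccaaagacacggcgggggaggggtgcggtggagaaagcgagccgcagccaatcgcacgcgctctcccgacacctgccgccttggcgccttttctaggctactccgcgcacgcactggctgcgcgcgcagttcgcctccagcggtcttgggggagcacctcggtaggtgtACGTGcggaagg
The canonical E-box that Myc and Max bind, CACGTG, was not among these letters. The single match was to ACGTG, the core of the hypoxia-response element, whose letters are also contained in CACGTG, with its first base at -2. Windows of 300 bases, from 250 before to 50 after a start, held CACGTG in 7.15% of 32851 promoters, ACGTG in 19.6% and the E2F-type motif TTTNNCGC in 5.17%, each searched on both strands. Windows were found for 5 members, Cybrd1, Ftl1, Ireb2, Tfrc and Fth1, 7 windows in all. The matches among them were to ACGTG in 2 overlapping Tfrc windows. Both are the same site, at -2 and -228 from the 2 annotated starts. Sites outside the windows were not searched. Slc11a2, Slc40a1 and Heph had no entry in the promoter table.

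The targeted genes were read first, as a check of the labels. Rb1 was lower in Rb KO than in control by a log2 difference of -1.46 in villi and -1.68 in crypts (limma adjusted p = 6.99e-06 and 2.65e-05). Myc was lower in DKO than in Rb KO by -1.60 in crypts (limma adjusted p = 1.87e-05). In villi, where its control mean was 7.06, the difference was -0.52 (limma adjusted p = 0.147). In Rb KO against control, Myc differed by 0.22 in villi and -0.04 in crypts, neither called (limma adjusted p = 0.477 and 0.924). Of the markers of villus enterocytes, 3 of 9 were called lower in Rb KO than in control villi (Ace, Slc5a1 and Vil1). Of all genes tested, 30.5% were called there in either direction. The log2 of the summed level of the 9 enterocyte markers stayed between 17.37 and 17.52 in both groups. Of the 9 crypt markers none was called in that comparison (2 had an unadjusted p under 0.05), but their summed level ran from 12.31 to 14.78 among the 5 control villi, from 13.73 to 14.80 in Rb KO villi and from 13.96 to 15.09 in DKO villi. Hepatocyte markers, of which 3 of 5 with a probe set were above the filter, had a median summed level of 8.69 in DKO villi with 1 array at 12.51. Muscle and stroma markers ran from 9.82 to 12.51 over the villus arrays. None of either list was called in any villus comparison (0 at an unadjusted p under 0.05 in each). The hepatocyte markers had a median difference of 0.595 in DKO against Rb KO and 0.495 in DKO against control villi. The DKO array at 12.51 was kept in the main fits. The arrays are of whole tissue, so fewer cells of a type and less RNA per cell cannot be told apart.

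After loss of Rb in villi, the importer Slc11a2 and the ferritin heavy chain Fth1 were lower and the transferrin receptor Tfrc was higher than in control villi. The differences of the chosen probe sets were 1.39-fold for Slc11a2, 1.11-fold for Fth1 and 2.09-fold for Tfrc, and Fth1 was read near the top of the scale, where a fold may be understated. These 3 of 7 members called compare with 30.5% of all genes tested in the same comparison, so the count itself is close to the background. The exporter Slc40a1, its partner Heph, the reductase Cybrd1 and the regulator Ireb2 were not called. In the other 5 comparisons of genotypes within a tissue, no member was called by limma, against 7.83% of all genes in DKO against Rb KO villi, 17.1% in DKO against control villi, 10.3% in Rb KO against control crypts, 12.4% in DKO against Rb KO crypts and 20.2% in DKO against control crypts; at an unadjusted p under 0.05 they held 0, 1, 1, 2 and 0 members.

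**Figure D1:**
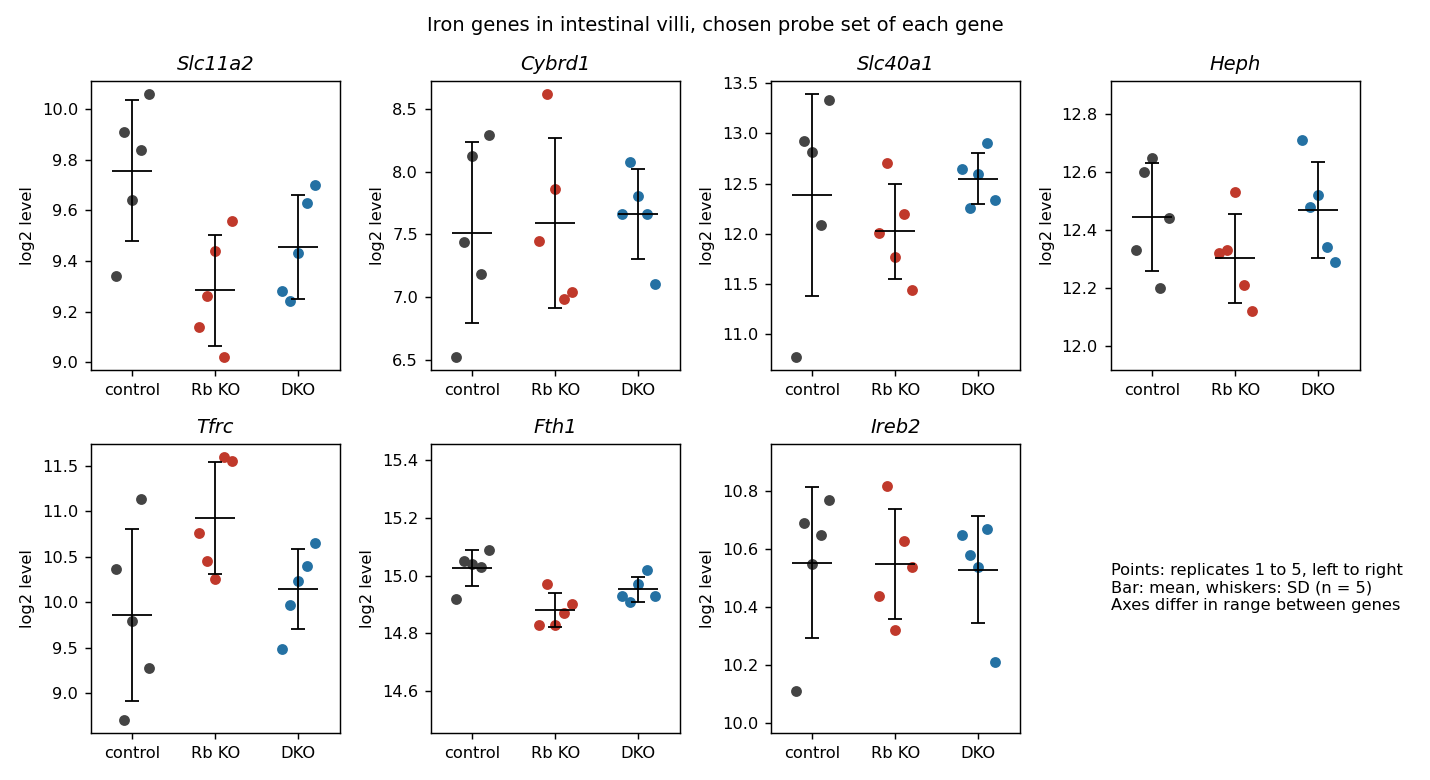
Log2 level of 7 iron genes in villi, 1 panel a gene, with points for replicates 1 to 5 of control, Rb KO and DKO, a bar for the mean and whiskers for the SD (n = 5); axes differ in range between panels. Slc11a2 lies lower in Rb KO than in control villi (9.28 against 9.76), Tfrc higher (10.93 against 9.86), and the points of the groups overlap for every gene.

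Slc11a2, the importer of ferrous iron, read 9.34, 9.91, 9.64, 9.84 and 10.06 in the 5 control villi. In Rb KO villi it read 9.14, 9.26, 9.44, 9.02 and 9.56, so that every Rb KO array lay below the control median of 9.84 while the ranges overlapped through control replicate 1. The difference was -0.47 ± 0.14 (SE; limma adjusted p = 0.0153). DKO villi read 9.28, 9.24, 9.43, 9.63 and 9.70. Their mean of 9.46 lay between the means of the other groups, while the arrays overlapped both. This mean differed from Rb KO by 0.17 ± 0.14 (limma adjusted p = 0.465) and from control by -0.30 ± 0.14 (adjusted p = 0.147). Without control animal 1 the latter became -0.41 (limma adjusted p = 0.0418). All 4 Slc11a2 probe sets were lower in Rb KO than in control villi, by -0.28 to -0.47; with p-values adjusted over all 45101 probe sets, 2 of the 4 were called, 1452078_a_at and 1417584_at (-0.28, adjusted p = 0.0429). The probe set 1417584_at was also lower in DKO than in control villi by -0.44 (adjusted p = 0.00609), which the probe set standing for the gene did not pass. In DKO against Rb KO villi 1417584_at was lower (-0.16) and the other 3 probe sets were higher, by 0.08 to 0.39, none of the 4 called.

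In crypts the chosen Slc11a2 probe set varied little, from 9.59 to 9.96 over all 15 arrays. The Rb KO crypts read 9.89, 9.83, 9.67, 9.92 and 9.90 against 9.74, 9.96, 9.74, 9.65 and 9.86 in control, a difference of 0.05 ± 0.07 (adjusted p = 0.704). DKO crypts read 9.73, 9.74, 9.59, 9.59 and 9.75, every one below the Rb KO median, by -0.16 ± 0.07 (adjusted p = 0.135). The other 3 probe sets were lower in Rb KO than in control crypts, by -0.03 to -0.17, none of them called. Among control crypts, 1426441_at and 1441709_at spread more (SD 0.52 and 0.46) than the chosen probe set (0.12), and 1417584_at less (0.04). The test of the difference between the tissues in the effect of Rb loss gave, for the chosen probe set, -0.52 ± 0.16 (limma interaction, adjusted p = 0.0243). It was 1 of 7 members called there, against 13.7% of all genes; for the effect of DKO against Rb KO, no member was called against 3.4% of all genes, with 1 (Slc11a2 again, 0.33) at an unadjusted p under 0.05. With the mean of the 4 probe sets in place of the chosen one, the interaction was -0.35 (adjusted p = 0.244), and leaving out single arrays gave an adjusted p from 0.00323 to 0.0571. The arrays without which it was no longer called were control villi 2 and 5, Rb KO villi 4 and control crypts 4.

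Cybrd1, the brush border reductase, varied widely within each genotype in villi. Control villi read 6.52, 7.44, 8.13, 7.18 and 8.29, Rb KO villi 7.45, 8.62, 7.86, 6.98 and 7.04, and DKO villi 7.66, 8.08, 7.81, 7.66 and 7.10. The groups lie over each other, and the differences of 0.08 ± 0.34 (Rb KO against control) and 0.07 ± 0.34 (DKO against Rb KO) were smaller than the spread within any of them. In crypts the spread was narrower: Rb KO crypts read 6.29, 6.58, 6.80, 6.65 and 6.66, below control at 6.79, 6.67, 6.76, 6.85 and 7.23 by -0.26 ± 0.10 (adjusted p = 0.131). DKO crypts read 6.94, 6.74, 7.04, 6.80 and 6.93, every one above the Rb KO median, by 0.29 ± 0.10 (adjusted p = 0.0813). The second Cybrd1 probe set, 1460604_at, gave the same signs with a larger second difference, 0.65 ± 0.11 (adjusted p = 0.00194 over all probe sets), and was also higher in DKO than in control crypts by 0.36 (adjusted p = 0.0486). The probe sets thus disagree on whether Cybrd1 passed in DKO against Rb KO crypts, and the mean of both was called.

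Slc40a1, the only known cellular iron exporter, varied widely among control animals. Control villi read 10.77, 12.92, 12.81, 12.09 and 13.33; replicate 1 lay more than 1 log2 unit below the rest. Rb KO villi read 12.01, 12.70, 11.77, 12.20 and 11.44, a difference from control of -0.36 ± 0.37 (adjusted p = 0.505), with every Rb KO array below the control median. DKO villi, at 12.64, 12.26, 12.60, 12.90 and 12.34, were all above the Rb KO median, by 0.52 ± 0.37 (adjusted p = 0.400). The second Slc40a1 probe set, 1448566_at, gave the same signs with larger sizes, -0.80 ± 0.43 and 0.81 ± 0.43, neither called (adjusted p = 0.223 and 0.287 over all probe sets). Without control villi 1 the first difference was -0.76 (adjusted p = 0.0307), so 1 library decides whether Slc40a1 is called. Control crypts 1, matched to the same animal, was the lowest crypt array as well: control crypts read 9.71, 11.49, 10.67, 11.74 and 12.13. Rb KO crypts (11.04, 11.49, 10.80, 11.29 and 10.22) and DKO crypts (11.22, 11.06, 10.31, 10.997 and 10.80) lay inside that range, with differences from control of -0.18 ± 0.36 and -0.27 ± 0.36 (adjusted p = 0.817 and 0.666). Leaving out single arrays moved them to between -0.54 and 0.06 and between -0.63 and -0.03, the lowest of each without control crypts 1 and the highest without control crypts 5, and none was called.

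The genes whose levels ran most alike with Slc40a1 over the 15 villus and the 15 crypt arrays were Pdx1 (r = 0.94 in villi and 0.87 in crypts), S100g (0.90 and 0.89) and Plut (0.94 and 0.83). Pdx1 is a transcription factor of the proximal intestine, and S100g encodes the calcium-binding protein calbindin-D9k of absorptive cells. These correlations describe arrays that share genotype groups and, between tissues, animals. Pdx1 was lowest in control animal 1 in both tissues, 8.02 of a control range up to 10.1 in villi and 7.91 of up to 9.85 in crypts. With the Pdx1 level as a covariate, a setting chosen after seeing the data, the Slc40a1 difference between Rb KO and control villi shrank to -0.09 (adjusted p = 0.696), while in crypts DKO against control became -0.46 (adjusted p = 0.0309). The part that the position along the intestine had in these values was not tested. Of the 6 proximal markers, Pdx1 among them, none was called in Rb KO against control villi (0 at an unadjusted p under 0.05), and their summed level ran from 15.26 to 15.69 in control and from 15.24 to 15.57 in Rb KO villi; of 4 tested distal markers, Cubn (-2.34) and Clec2h (-0.32) were lower in Rb KO villi. The other 2 with a probe set, Fabp6 and Slc10a2, which define the ileum, were below the filter. Of all genes tested, 30.5% were called in Rb KO against control villi.

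**Figure D2:**
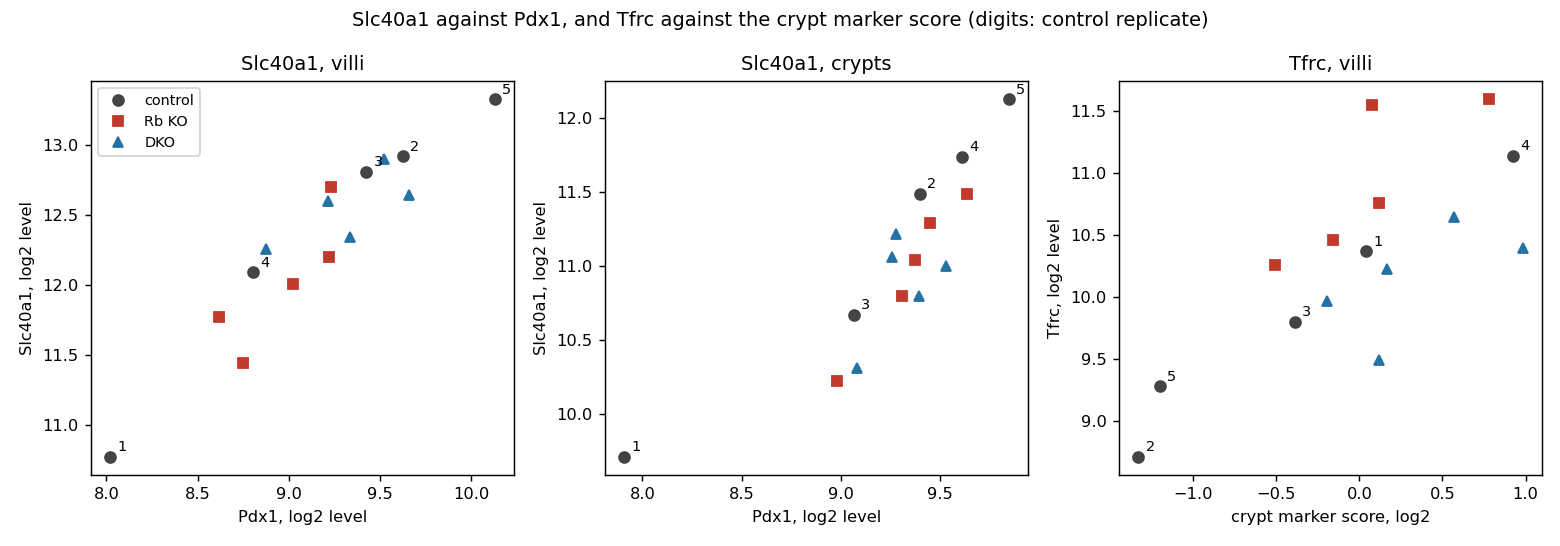
Slc40a1 against Pdx1 in villi (left) and crypts (middle), and Tfrc against the crypt marker score in villi (right), all log2, 1 point an array, with digits for control replicates. Control 1 is lowest on both axes in the Slc40a1 panels; in the right panel control 2 is lowest and control 4 highest among controls on both axes.

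Heph, the ferroxidase that works with ferroportin, was steady in villi, between 12.12 and 12.71 over all 15 arrays. It averaged 12.45 ± 0.19 for control, 12.30 ± 0.15 for Rb KO and 12.47 ± 0.17 for DKO villi (SD, n = 5), and the differences of -0.14 and 0.16 had adjusted p-values of 0.334 and 0.344. In crypts the means were 10.90 ± 0.15, 11.04 ± 0.15 and 11.12 ± 0.31, and all 5 Rb KO arrays were above the control median without passing the test (0.15 ± 0.13, adjusted p = 0.527). The wider spread of DKO crypts came from replicates 1 and 2, at 11.55 and 11.36, with the other 3 at 10.88 to 10.92.

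Tfrc, the receptor for transferrin-bound iron, was read by 6 probe sets, and the values given first are those of the chosen one. Control villi read 10.37, 8.71, 9.80, 11.14 and 9.28, and Rb KO villi read 10.76, 10.46, 10.26, 11.60 and 11.55. All 5 Rb KO arrays were above the control median of 9.80, but the ranges overlapped through control replicates 1 and 4. The difference was 1.07 ± 0.39 (limma adjusted p = 0.0496), just inside the threshold, and single arrays decided the call: leaving out 1 of the 10 arrays in turn gave 0.78 to 1.39, called in 4 of 10, and not called without control 2, 3 or 5 or Rb KO 1, 4 or 5. DKO villi read 9.49, 9.97, 10.23, 10.40 and 10.65, all below the Rb KO median of 10.76, and their mean differed from Rb KO by -0.78 ± 0.39 (adjusted p = 0.234) and from control by 0.29 ± 0.39 (adjusted p = 0.642). Neither of these differences passed the test.

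Of the 6 Tfrc probe sets, 3 were the transferrin receptor controls placed on this array at the 5 prime end, the middle and the 3 prime end of the transcript. All 6 were higher in Rb KO than in control villi and all 6 were lower in DKO than in Rb KO villi, while against control the DKO villi were higher in 3 and lower in 3, by -0.10 to 0.29. The sizes differed, however: the chosen probe set 1452661_at gave 1.07 for Rb KO against control, and the other 5 gave 0.17 to 0.45, none of them called. With limma fitted over all 45101 probe sets, 1452661_at itself had an adjusted p of 0.0584, and the mean of the 6 gave 0.43 (adjusted p = 0.356). The 3 control sets read 0.17 at the 5 prime end, 0.25 in the middle and 0.45 at the 3 prime end. In control villi their mean levels were 5.71, 5.19 and 7.25, in the same order. The chosen probe set averaged 9.86 there, and the means of the other 5 ran from 5.19 to 8.30. Whether these lower levels made the differences of the other 5 smaller was not tested.

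**Figure D3:**
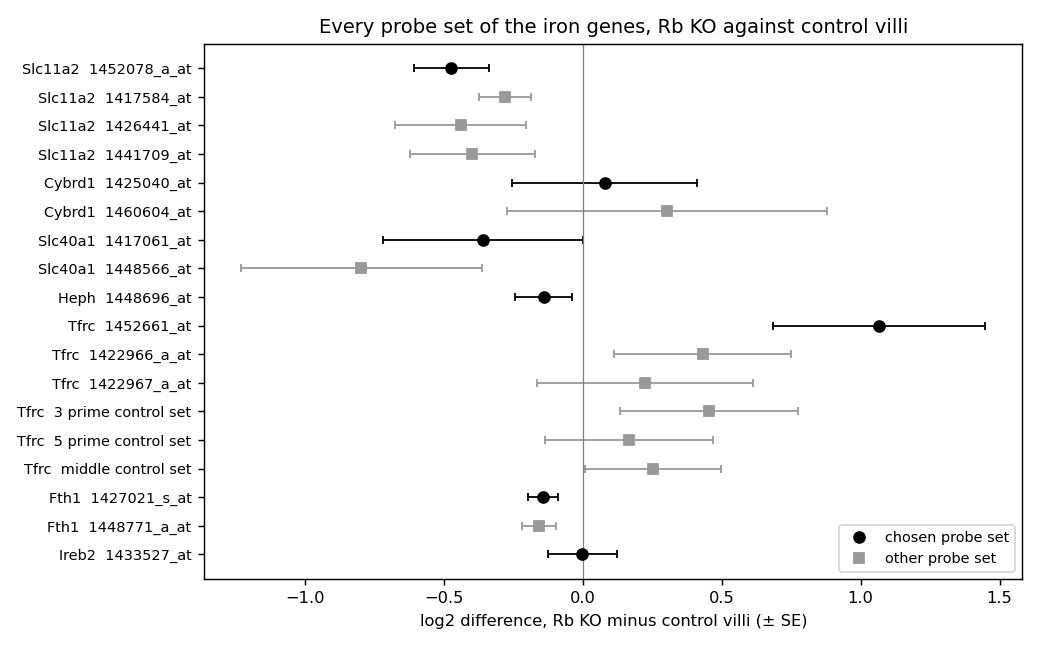
Log2 difference between Rb KO and control villi, with SE bars, for each of the 18 probe sets of the 7 genes; black circles are the probe sets standing for a gene, grey squares the others. The 6 Tfrc probe sets lie at 0.17 to 1.07 and the 4 of Slc11a2 at -0.28 to -0.47.

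The level of Tfrc in villi moved with that of crypt markers. The crypt marker score, the mean log2 level of the 9 crypt markers minus its mean over all villus arrays, was highest among controls in replicate 4 (0.92) and lowest in replicate 2 (-1.33), which also had the highest and lowest Tfrc of that group; its mean was -0.39 over control villi, 0.06 over Rb KO villi and 0.33 over DKO villi. With this score as a covariate, Rb KO against control fell to 0.64 ± 0.19 and was still called (limma adjusted p = 0.0196). DKO against Rb KO became -1.03 ± 0.19 (limma adjusted p = 0.00205), a call that the fit without the score did not make. In that comparison the score raised the calls over all 14548 genes from 1139 to 2549. Since the score itself differed between genotypes, this fit cannot tell its part from that of genotype. Macrophage markers, which could bring Tfrc of their own, had none of 9 called (1 at an unadjusted p under 0.05), with a summed level from 10.30 to 10.80 in control and from 10.49 to 12.45 in Rb KO villi. Erythroid markers had none of 3 called (0 at an unadjusted p under 0.05), from 7.68 to 7.997 and from 7.81 to 8.26. The part of either cell type in the Tfrc result was not tested. The control probe sets for GAPDH differed between their 3 prime and 5 prime ends by a mean of -0.14 in control and -0.05 in Rb KO villi. This reading ran from -0.211 to -0.112 in control and from -0.0903 to 0.0115 in Rb KO villi, without overlap. It was used as a covariate, chosen after seeing the data. The Tfrc difference was then 2.02 (limma adjusted p = 0.00934), while Slc11a2 at -0.44 was no longer called (limma adjusted p = 0.151). Since the reading separated the 2 genotypes, that fit cannot tell its part from that of genotype.

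In crypts, where Tfrc ran between 12.65 and 13.11 over all arrays, it read 12.96, 12.76, 12.71, 13.03 and 12.93 in control and 13.01, 12.93, 12.71, 13.11 and 13.04 in Rb KO (0.08 ± 0.09, adjusted p = 0.653). DKO crypts read 12.65, 12.67, 12.68, 12.87 and 13.02, of which 4 of 5 lay below the Rb KO median; the difference of -0.18 ± 0.09 was not called (adjusted p = 0.214). In the same comparison Myc itself differed by -1.60. The test of the difference between villi and crypts in the effect of Rb loss on Tfrc gave 0.99 ± 0.42 (adjusted p = 0.125), and 0.99 with an adjusted p of 0.0391 when the animal shared by villi and crypts was kept as a block.

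**Figure D4:**
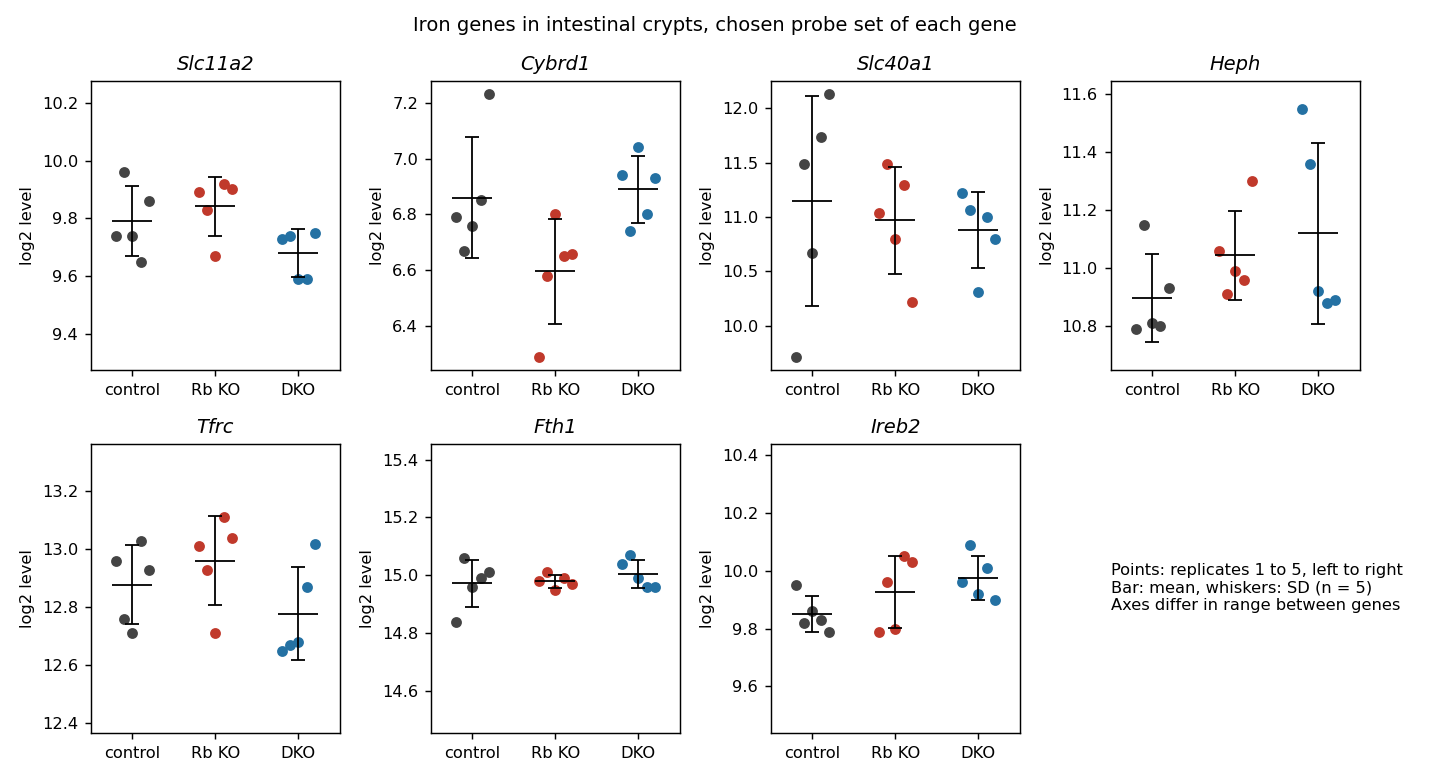
Log2 level of the same 7 genes in crypts, drawn as for villi, with points for replicates 1 to 5, a bar for the mean and whiskers for the SD (n = 5). Tfrc averaged 12.88 for control, 12.96 for Rb KO and 12.78 for DKO crypts, and control replicate 1 is the lowest point for Slc40a1, at 9.71.

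Textbook Myc targets show how other genes of that kind moved in these arrays. In DKO against Rb KO crypts, 9 of 12 were called lower, among them Gnl3 (-0.77), Npm1 (-0.47) and Srm (-0.87), which serve the nucleolus and polyamine synthesis, and 1, Odc1, was called higher (0.23; named after its value was seen). The median over the 12 was -0.43, against 0.01 over all genes tested, and the Tfrc value of -0.18 stands beside it. In Rb KO against control villi 6 of the 12 were called higher and none lower, led by Nop56 (1.08), Nop58 (0.96) and Cdk4 (0.89), with a median of 0.49. Against control, DKO had 8 called lower and 2 higher in crypts and 1 higher in villi. None was called in DKO against Rb KO villi (5 at an unadjusted p under 0.05), and none in Rb KO against control crypts (2). The shares of all genes tested called in these comparisons were 12.4%, 30.5%, 20.2%, 17.1%, 7.83% and 10.3%, in the order given here. The genes whose level ran most like that of Tfrc over the arrays were Slc7a1, a transporter of cationic amino acids (r = 0.94 in villi and 0.68 in crypts), Fasn, fatty acid synthase (0.91 and 0.74), and Rbm17, a splicing factor (0.93 and 0.70). For Slc11a2 they were Slc22a18 (0.77 and 0.77), Aamdc (0.70 and 0.83) and Tysnd1 (0.75 and 0.77), and for Cybrd1 Wasf3 (0.62 and 0.76), Poldip3 (0.67 and 0.66) and Rtbdn (0.53 and 0.80).

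Fth1, the ferritin heavy chain that oxidises iron for storage, lay near the highest value of any probe set in the files; whether its probes were saturated was not tested. It read 14.92, 15.05, 15.04, 15.03 and 15.09 in control villi and 14.83, 14.97, 14.83, 14.87 and 14.90 in Rb KO villi. All 5 Rb KO arrays were below the control median, by -0.14 ± 0.05 (limma adjusted p = 0.0463). Quantile normalization of the arrays reduced this to -0.07 (adjusted p = 0.366), and leaving out single arrays kept the call in 2 of 10. DKO villi read 14.93, 14.91, 14.97, 15.02 and 14.93, all above the Rb KO median, by 0.07 ± 0.05 (adjusted p = 0.407). The second Fth1 probe set gave -0.16 for Rb KO against control villi. With limma fitted over all 45101 probe sets neither was called (adjusted p = 0.0687 for the chosen one and 0.0763 for the second). In crypts Fth1 stayed between 14.84 and 15.07, with differences of at most 0.03 between the means of the genotypes.

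Ireb2, iron regulatory protein 2, which is itself degraded when iron is plentiful, was level across the genotypes in villi, where the means were 10.55 ± 0.26, 10.55 ± 0.19 and 10.53 ± 0.19 (SD, n = 5) and no pair of them differed by more than 0.021. Crypt arrays averaged 9.85 ± 0.06 for control, 9.92 ± 0.13 for Rb KO and 9.98 ± 0.08 for DKO. The largest of these differences, DKO against control at 0.13 ± 0.06, had an adjusted p of 0.170.

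**Figure D5:**
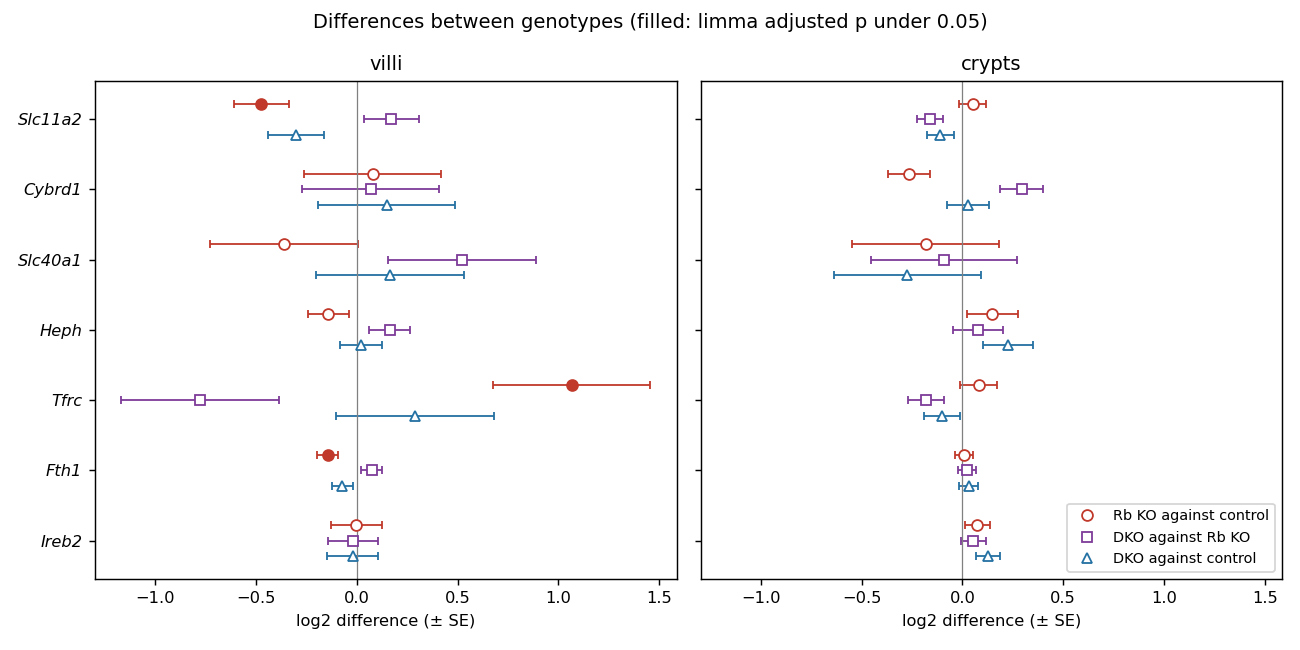
Log2 difference between genotypes with SE bars for the 7 genes in villi (left) and crypts (right); circles are Rb KO against control, squares DKO against Rb KO, triangles DKO against control, filled where the limma adjusted p is under 0.05. The filled points are Slc11a2 (-0.47), Tfrc (1.07) and Fth1 (-0.14), all for Rb KO against control in villi.

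The wider iron pathway was read from lists of its other genes. Of all genes tested, 30.5% were called in Rb KO against control villi, 7.83% in DKO against Rb KO villi and 17.1% in DKO against control villi. In crypts these shares were 10.3%, 12.4% and 20.2%. The lists below, of 7 to 15 tested genes each, had 14.3% to 44.4% called in Rb KO against control villi. No list was tested as a set, so a count near these shares is no result about the list. Of 9 tested partners in iron sensing and storage, 2 were called higher and 1 lower in Rb KO than in control villi: the iron chaperones Pcbp2 (0.37) and Pcbp1 (0.20), and the iron regulatory protein Aco1 (-0.30). Aco1 was lower in DKO than in control villi as well (-0.31), where Hfe, a partner of the transferrin receptor, was higher (0.35). Pcbp2 was lower in DKO than in Rb KO villi (-0.33), and Pcbp1 (-0.19) and Aco1 (-0.32) in DKO than in Rb KO crypts. None was called in Rb KO or DKO against control crypts (2 and 3 at an unadjusted p under 0.05).

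Of 15 tested other metal transporters, metal-binding proteins and reductases, 1 was called higher and 2 lower in Rb KO than in control villi. The lower ones were the metallothioneins Mt1 (-1.51 ± 0.38, adjusted p = 0.00721) and Mt2 (-1.59 ± 0.52, adjusted p = 0.0291), which bind zinc and copper, and the higher one was the metalloreductase Steap1 (0.29). Mt1 (-0.97) and Mt2 (-1.61) were also lower in DKO than in control crypts, with the zinc importer Slc39a4 higher (0.39). In Rb KO against control crypts Slc39a4 (0.43) and Steap1 (0.39) were higher and the zinc exporter Slc30a1 lower (-0.42). In DKO against Rb KO crypts Steap1 was lower (-0.68), and Slc30a1 (0.41) and Slc22a17 (0.23) were higher. None was called in the other villus comparisons, DKO against Rb KO (3 at an unadjusted p under 0.05) and DKO against control (4).

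Of 9 genes of heme uptake, export and breakdown, 4 were called in Rb KO against control villi. Biliverdin reductases A and B were higher, Blvra by 0.71 ± 0.10 and Blvrb by 0.65 ± 0.12 (limma adjusted p = 0.000104 and 0.000725). The brush border transporter Slc46a1, known for folate and heme uptake, was lower by -0.92 ± 0.18 (limma adjusted p = 0.00133). The efflux pump Abcg2 was lower as well (-0.36; named after its value was seen). Blvra (0.32) and Blvrb (0.37) were also higher in Rb KO than in control crypts. In DKO against Rb KO villi Blvrb was lower (-0.42) and Abcg2 higher (0.43). In DKO against control villi Slc46a1 was lower (-0.56), and Blvra (0.48) and Flvcr2 (0.53) were higher. Hmox1, the inducible heme oxygenase, was higher in DKO crypts than in Rb KO or control crypts (0.26 in each), the latter with Blvra (0.29).

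Of 7 tested enzymes of heme synthesis, Ppox was called higher (0.65) and Fech lower (-0.40) in Rb KO than in control villi. Fech, which inserts iron into the porphyrin ring, was higher in DKO than in Rb KO villi (0.33), as was Alad (0.62). In DKO against Rb KO crypts 4 of the 7 were called, Alad (0.62) and Fech (0.29; named after its value was seen) higher and Alas1 (-0.40) and Cpox (-0.57) lower. In Rb KO against control crypts Ppox was higher (0.63). DKO villi differed from control in Alad (0.53), Ppox (0.42) and Cpox (-0.42), and DKO crypts in Alad (0.49) and Alas1 (-0.33).

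Of 13 tested genes of mitochondrial iron import and iron-sulfur clusters, 2 were called higher and 3 lower in Rb KO than in control villi, with the mitochondrial iron importer Slc25a28 at 0.75 and the scaffold proteins Iscu and Isca1 at -0.24 and -0.20. In DKO against Rb KO villi Slc25a28 was lower (-0.40) and Isca1 higher (0.31). Slc25a28 was also higher in DKO than in control villi (0.36) and in Rb KO than in control crypts (0.21), where Hscb was lower (-0.19). The cysteine desulfurase Nfs1 was lower in DKO crypts than in Rb KO (-0.24) and control crypts (-0.30), and so was Lyrm4 (-0.19 and -0.22); against control, 4 of the 13 were lower and none higher.

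Among 8 hypoxia-inducible factors and their regulators, which act on Slc11a2, Cybrd1 and Slc40a1 when iron or oxygen is low, the oxygen sensor Egln1 was called higher in Rb KO than in control villi (0.57) and Vhl (-0.30) and Hif1an (-0.29) lower. Egln1 was also higher in Rb KO than in control crypts (0.40), with Hif1a (0.46), and in DKO than in control villi (0.47) and crypts (0.26). None was called in DKO against Rb KO villi (1 at an unadjusted p under 0.05) or crypts (2). Among 7 tested genes of the hepcidin pathway, Id1 was called higher in Rb KO than in control villi (0.52) and crypts (0.36), the latter with Bmp2 (0.62), and in DKO than in control villi (0.30) and crypts (0.65), the latter with Smad7 lower (-0.25). In DKO against Rb KO crypts Bmp2 (-0.93), Smad7 (-0.33) and Smad6 (-0.41) were called lower, and none was called in villi (3 at an unadjusted p under 0.05). The hepcidin gene Hamp and Bmp6, both on this list, were below the filter and not tested, so these calls say nothing about hepcidin itself.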

How the data were processed

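Total RNA from 15 villus and 15 crypt samples was isolated with TRIzol, cleaned and biotin-labelled for the arrays, per the labels' protocols. The files deposited by the authors hold log2 values for 45101 probe sets, between 2.64 and 15.21; how the authors normalized and summarized them is not given in the sources used here. Array medians were 6.28 to 6.34 in villi and 6.67 to 6.73 in crypts, and arrays of different tissues shared at most 1 identical value against 285 to 596 within a tissue, so tissues were treated as normalized separately. Gene symbols came from the platform annotation (34958 probe sets with 1 symbol, 932 with several, 9211 with none).

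Genes whose mean exceeded the 30th percentile of all (5.33) were fitted with limma 3.58.1 in R 4.3.3, with the 3 genotypes of a tissue in 1 fit, and the interaction over all 30 arrays; p-values were two-sided and adjusted by Benjamini-Hochberg over 14548 genes at a threshold of 0.05. Single probe sets were fitted over all 45101. The fit was tested on simulated data. Precision is limited by how many arrays there are, and the labels do not state that replicates are separate animals, so p-values measure only the spread between these samples. Villus and crypt arrays with the same genotype and replicate number had correlated departures from their group means (15 of 15, r from 0.25 to 0.56). In 14 of 15 the villus array ran most like the crypt array of its own number among those of its genotype. Such arrays were taken as the same animal. The main interaction fit did not use this pairing, so its p-values treat the arrays as independent.

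The members and the gene lists were chosen with earlier results of these data known. The genes named are all members, Rb1 and Myc, of each pathway list up to 3 of smallest p past the threshold in a comparison, and for 4 members the 3 genes of highest mean correlation over both tissues. Alternatives were another probe set or the mean of all, no filter, quantile normalization, median centring, other limma settings, covariates, blocks, a stricter threshold and leaving out arrays. Promoter windows came from RefSeq, GRCm38.p6.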

Additional observations from a re-analysis of the deposited data

Results flagged for a closer look

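Ireb2 was lowest in DKO villi replicate 5, at 10.21, while the other 4 arrays of that group lay between 10.54 and 10.67; the gap was 0.724 of the range of the group. In all, 54 groups of 5 arrays were checked in this way, and chance sets apart about 1 in 20. The effect of Rb loss on Slc11a2 differed between villi and crypts by -0.52 (limma interaction, adjusted p = 0.0243). The effect of DKO against Rb KO on Myc itself differed between villi and crypts by 1.08 (limma interaction, adjusted p = 0.0314), the drop being larger in crypts.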

How the results depend on the processing

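Of Rb KO against control villi, 3 members were called; 1 was called with no filter, 1 with only the groups compared in the fit, 0 at the threshold of 0.01, and 1 each with the Pdx1 level and with the GAPDH reading as a covariate (both chosen after seeing the data). For the difference between villi and crypts in the effect of Rb loss, 1 was called, 2 with the animal as a replicate block, and 0 with the mean of all probe sets, with the crypt marker score or at 0.01. Where no member was called, 1 was in DKO against Rb KO crypts with the mean of all probe sets, in DKO against Rb KO villi with the crypt marker score, and in DKO against control crypts with the Pdx1 level. Leaving out single arrays gave 1 to 4 members in Rb KO against control villi, 0 to 1 in DKO against control villi, 0 to 2 for the difference in the effect of Rb loss, and 0 in the others. No value reversed its direction while called. The replicate number across genotypes was not taken as a pairing of the arrays. Correlations between arrays of the same number ran from -0.20 to 0.42 in villi (median 0.18) and from -0.27 to 0.40 in crypts (median -0.009). Of 15 such pairs, 8 were over 0.1 in villi and 5 in crypts. As a replicate block within a tissue, the number moved Tfrc in Rb KO against control villi to a limma adjusted p of 0.0217 and Fth1 to 0.0642. Over all genes, the animal block raised the interaction for DKO against Rb KO from 495 to 1291 calls, the crypt marker score raised DKO against Rb KO villi from 1139 to 2549 and lowered the interaction for Rb loss from 1999 to 1270, and the Pdx1 level lowered DKO against Rb KO villi to 679. At 0.01 the counts over all genes, in the order Rb KO against control, DKO against Rb KO and DKO against control, in villi and then in crypts, followed by the interactions for Rb loss and for DKO against Rb KO, were 2867, 251, 1294, 673, 745, 1648, 940 and 85. The cause of these moves was not tested.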
